A study of Mus musculus with 6 samples.

Results

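The growth hormone, STAT5 and IGF1 axis was described in mouse liver by 10 genes, taken as a list of named genes and measured by every non-control probe whose RefSeq accession belongs to one of them. They are Ghr, Stat5a, Stat5b, Socs2, Cish, Bcl6, Igf1, Igfals, Igfbp3 and Igfbp2, measured by 14 of the 56605 non-control probes, and 10 of the 22911 genes that could be named on the array. Gene expression was measured in 3 male mice fed regular chow (control) and 3 male mice fed chow of which 25% was soy bean powder (soy), each for 4 weeks, with 1 single-colour Agilent array per mouse. The methods put the mice at 12 weeks of age, kept in a cycle of light and dark and fed freely, and no other treatment or allele is named for either group. Control 1, control 2 and soy 1 were on slide 1, soy 2 was alone on slide 2, and control 3 and soy 3 were on slide 3. Between 36366 and 38163 spots per control array stood well above background, against 31308 to 32498 per soy array, and the number of arrays limits the precision of every value given here.

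Growth hormone from the pituitary binds the receptor GHR on hepatocytes, which activates the kinase JAK2 and, through it, the transcription factors STAT5A and STAT5B. In the liver, these factors switch on Igf1, whose product carries much of the growth signal through the blood, together with Socs2 and Cish, whose products dampen the signal at the receptor. The rhythm of growth hormone release differs between the sexes in mice, and with it the expression of many liver genes.

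Values below are log2 signals after normalization, and a change is the soy mean minus the control mean on that scale. A probe passed when its Benjamini-Hochberg adjusted p from limma was under 0.05 and its fold change exceeded 1.5 or lay below 0.66, and a gene was counted as passing if any probe of it did. The brightest probe, the one with the highest mean signal, stands for a gene that has several. Levels were not compared between genes, since signals of different probes share no scale. All 14 probes were well above background on all 6 arrays, each had 1 spot per array, and 0 of these spots were marked as outliers.

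Promoters of the axis genes were read for TTCNNNGAA, the palindromic core to which STAT5 dimers bind. RefSeq promoter windows on GRCm38.p6, each running from 250 bases before to 50 bases after an annotated start, held 16 entries for 9 of the 10 genes, and no Socs2 promoter was read. The letters, which read the same on both strands, occurred in 5 of these windows, from Cish, Bcl6 and Igfals, and in 2726 of all 32851 windows (8.30%). Cish held 2 matches, as did 0.457% of all windows counting those with 2 or more, and 1 Bcl6 window held 3 (0.0335% of all windows held 3 or more). These windows and the Igfals window whose match lay nearest the start are shown from 250 bases before to 25 bases after the start, with the matches in capitals. They lie at chr9:107296409-107296683 (plus strand) for Cish, chr16:23981259-23981533 (minus strand) for Bcl6 and chr17:24877981-24878255 (plus strand) for Igfals.
Cish: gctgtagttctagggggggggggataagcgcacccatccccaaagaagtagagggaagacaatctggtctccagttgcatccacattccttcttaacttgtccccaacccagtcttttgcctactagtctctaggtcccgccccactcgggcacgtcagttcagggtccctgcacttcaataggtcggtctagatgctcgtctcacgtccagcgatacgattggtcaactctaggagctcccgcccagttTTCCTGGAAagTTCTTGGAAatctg
Bcl6: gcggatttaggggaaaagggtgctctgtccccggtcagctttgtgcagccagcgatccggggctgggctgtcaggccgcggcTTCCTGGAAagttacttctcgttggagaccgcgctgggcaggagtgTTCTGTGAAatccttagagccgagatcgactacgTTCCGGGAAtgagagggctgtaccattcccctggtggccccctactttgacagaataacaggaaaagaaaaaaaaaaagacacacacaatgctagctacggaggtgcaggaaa
Igfals: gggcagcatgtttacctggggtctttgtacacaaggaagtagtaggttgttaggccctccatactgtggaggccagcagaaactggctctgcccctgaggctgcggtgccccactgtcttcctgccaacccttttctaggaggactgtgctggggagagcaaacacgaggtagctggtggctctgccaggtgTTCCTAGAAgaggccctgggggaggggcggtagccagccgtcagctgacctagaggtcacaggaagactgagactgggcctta
Counted from the start, the matches began at base 0 and base 11 in Cish, at bases -168, -122 and -88 in Bcl6, and at base -58 in Igfals. The other Bcl6 window with a match had it at base -118 and the other Igfals window at base -236. The matches describe the letters in these windows, and no binding was measured.

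By their brightest probes, 7 of the 10 genes had a lower mean in soy and 3 a higher one, and 0 of 10 passed, against 105 of all genes (0.458%). Counting every probe, 1 of the 10 passed, Stat5a by its dimmer probe, against 122 of 22911 genes (0.532%), of which 78 were higher and 44 lower in soy. This split was 5332 higher and 615 lower when each array's processed signal was divided by its own 75th percentile, with genes that had probes in both directions counted in each. The groups were free of overlap in 2 of the 10 genes, Igf1 and Igfbp3, both lower in soy. Among genes well above background on all 6 arrays, 25.6% did not overlap and 12.2% were lower without overlap. Without control 3, a mouse described below, 5 of the 10 were free of overlap, against 38.7% of the same genes. Of these 5, Ghr, Bcl6, Igf1 and Igfbp3 were lower and Socs2 was higher in soy. At an unadjusted p under 0.05 there were 3 of the 10 genes, Igf1, Igfbp2 and Igfbp3, each lower in soy, against 20.1% of genes well above background on all arrays. The median change of the 10 genes was -0.18, against -0.0057 over all genes. In bulk tissue, fewer cells of a type and less RNA per cell cannot be told apart.

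**Figure D1:**
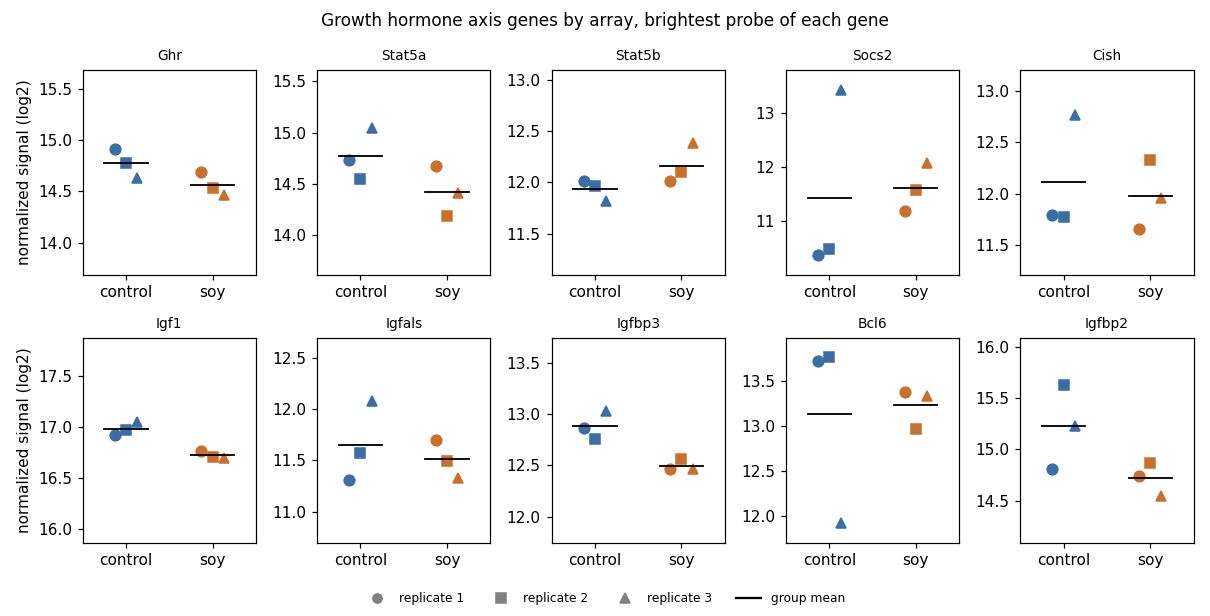
Normalized log2 signal (y axis, each panel with its own range) of the brightest probe of each of the 10 genes in the control and soy mice (x axis), with a symbol per mouse and a line at the group mean. Igf1 and Igfbp3 are lower in all 3 soy mice than in any control mouse, and control 3 lies far from the other control mice in Socs2 and Bcl6.

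Control 3 stood apart from the other control mice in several of these genes. Its value differed from the mean of controls 1 and 2 by 3.00 for Socs2, 0.98 for Cish, 0.64 for Igfals and -1.81 for Bcl6, and by 1.65 for Onecut1, a liver transcription factor gene that growth hormone is known to induce. Arrays were correlated across 32338 probes well above background throughout at least 1 group, which are not independent replicates. The correlation of control 3 with controls 1 and 2 was 0.988 and 0.992, and that between controls 1 and 2 was 0.990. Correlations with soy 1, soy 2 and soy 3 were 0.988, 0.988 and 0.987 for control 3. They were 0.986, 0.983 and 0.982 for control 1, and 0.988, 0.986 and 0.985 for control 2. Soy 3, the other array on slide 3, did not stand apart from the other soy mice in the same way. It read 13.34 for Bcl6, 12.15 for Onecut1 and 11.96 for Cish, each within the range of soy 1 and soy 2. For Socs2 it read 12.07, the highest of the soy mice but below control 3. For Igfals it read 11.33, the lowest of the soy mice, whereas control 3 was the highest control mouse. Without control 3, the changes of the genes described below were -0.28 for Ghr, -0.22 for the brighter Stat5a probe, 0.18 for Stat5b, -0.22 for Igf1, -0.31 for Igfbp3, -0.50 for Igfbp2 and -2.71 for Igfbp1. For Socs2, Cish, Bcl6, Igfals, Onecut1 and Socs3 the value without control 3 stands beside the change over all mice.

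Ghr encodes the growth hormone receptor. Its brightest probe (NM_001048178) read 14.91, 14.77 and 14.64 in the control mice and 14.69, 14.53 and 14.46 in the soy mice. The groups overlapped only between control 3 and soy 1. The change was -0.21 (SE 0.12, limma adjusted p = 0.542), with a 95% interval from -0.48 to 0.06. The other 2 probes changed by -0.19 (adjusted p = 0.713) and -0.11 (adjusted p = 0.774) and did not pass. Without control 2 these were -0.081 and -0.038, and with slide as a block -0.043 and -0.034. Without soy 1 they were larger, at -0.32 and -0.20. A fit with slide as a block takes no part of the change from soy 2, which was alone on its slide.

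The transducers STAT5A and STAT5B are close paralogs that growth hormone activates in hepatocytes, where STAT5B is the more abundant protein. The brighter Stat5a probe (NM_011488) read 14.74, 14.55 and 15.04 in control and 14.67, 14.19 and 14.41 in soy, and the groups overlapped. It changed by -0.35 (SE 0.17, limma adjusted p = 0.484, 95% interval from -0.75 to 0.04). The dimmer Stat5a probe, listed under the same accession, read 9.45, 9.66 and 9.68 in control and 10.38, 10.56 and 10.80 in soy. All 3 soy mice lay above all 3 control mice, and the probe rose by 0.99 (SE 0.13, limma adjusted p = 0.0396, 95% interval from 0.67 to 1.30), which is 1.98-fold. The changes of the 2 Stat5a probes over all mice had opposite signs, that of the brighter probe below the threshold, and the mean of both gave a change of 0.32. Within slide 1 soy was higher on both, by 0.83 on the dimmer and 0.03 on the brighter probe, and within slide 3 the differences were 1.12 and -0.64. The dimmer probe passed in 8 of 17 other settings, with adjusted p between 0.0030 and 0.155, and in none of the 6 fits that left out 1 mouse, where adjusted p ran from 0.0665 without soy 1 to 0.139 without soy 2. It did not pass with slide as a block (0.155) or with the replicate number as a block (0.0618) either.

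Stat5b (NM_011489) read 12.01, 11.97 and 11.82 in control and 12.01, 12.10 and 12.38 in soy. Control 1 and soy 1 had the same value and the other soy mice lay above every control. The change was 0.23 (SE 0.13, limma adjusted p = 0.542), with a 95% interval from -0.06 to 0.53. It was 0.12 without soy 3, and 0.02 within slide 1 against 0.56 within slide 3. Whether Stat5a and Stat5b transcripts share signal on these probes was not tested.

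**Figure D2:**
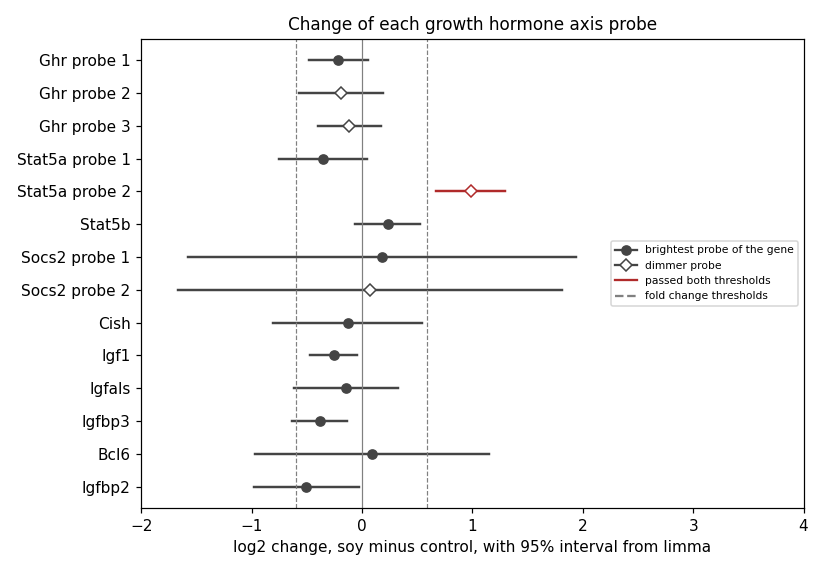
Change in log2 signal, soy minus control (x axis), of each of the 14 probes (y axis), with bars for the 95% interval from limma and dashed lines at the fold change thresholds. The dimmer Stat5a probe, at 0.99, passed both thresholds, and the widest intervals belong to Socs2, which runs from -1.58 to 1.93 on its brightest probe, and Bcl6.

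Socs2, a feedback inhibitor that STAT5 switches on within the same cell, varied more among the control mice than any other of the 10 genes. Its brightest probe (NM_007706) read 10.38, 10.48 and 13.43 in control and 11.18, 11.57 and 12.07 in soy. Every soy mouse lay above controls 1 and 2 and below control 3. The control range was 3.06, and only 13 of 13498 genes well above background on all arrays, Socs2 among them, had one as wide (0.0963%). The change over all mice was 0.18 (SE 0.75, limma adjusted p = 0.951), and without control 3 it was 1.18 (adjusted p = 0.141). On the dimmer Socs2 probe the soy mice again lay between controls 1 and 2 and control 3, at 9.69, 9.39 and 12.52 in control and 10.17, 10.67 and 10.97 in soy, with a change of 0.07 (adjusted p = 0.983) over all mice and 1.06 without control 3. Soy minus control was 0.75 within slide 1 and -1.36 within slide 3 on the brightest probe, and 0.63 and -1.55 on the dimmer probe.

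Cish encodes another feedback inhibitor of cytokine receptors. It read 11.79, 11.77 and 12.76 in control and 11.65, 12.33 and 11.96 in soy, and the groups overlapped. Control 3 was again the highest mouse. The change was -0.13 (SE 0.29, limma adjusted p = 0.900), and without control 3 it was 0.20 (adjusted p = 0.795).

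Bcl6 encodes a repressor that binds many of the sites of STAT5 in male liver and is itself turned down by growth hormone. It read 13.72, 13.76 and 11.93 in control and 13.38, 12.97 and 13.34 in soy. Here control 3 was the lowest mouse, and every soy mouse lay below controls 1 and 2. The control range was 1.83, and 0.704% of genes well above background on all arrays had one as wide. The change was 0.09 (SE 0.46, limma adjusted p = 0.959) over all mice and -0.51 (adjusted p = 0.303) without control 3. Within slide 1 soy lay below control by a change of -0.36, and within slide 3 it lay above it by 1.41.

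Onecut1, which was named for its role and is not among the 10 genes, read 11.70, 11.81 and 13.41 in control and 12.08, 12.58 and 12.15 in soy. As in Socs2, every soy mouse lay between controls 1 and 2 and control 3. Its change was -0.04 (SE 0.42, limma adjusted p = 0.983), and 0.51 (adjusted p = 0.363) without control 3. Soy minus control was 0.32 within slide 1 and -1.25 within slide 3. Of the 13498 genes well above background on all arrays, 0.882% had a control range as wide as that of Onecut1 (1.71).

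**Figure D3:**
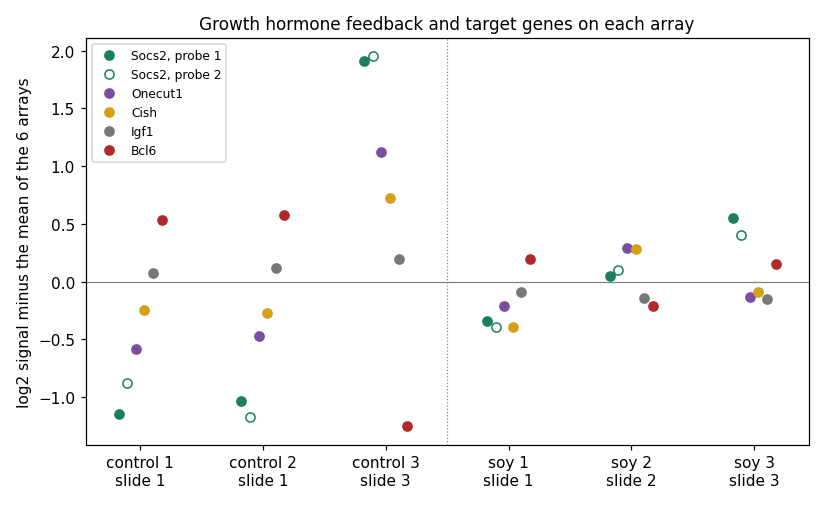
Log2 signal minus the mean of the 6 arrays (y axis) for both Socs2 probes, Onecut1, Cish, Igf1 and Bcl6 on each array, with its slide (x axis). On control 3 the Socs2, Onecut1 and Cish points are the highest of their genes and the Bcl6 point is the lowest, whereas the Igf1 points stay close to 0 on every array.

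Igf1 encodes the secreted growth factor that the liver supplies to the blood. Its probe (NM_010512) read 16.92, 16.97 and 17.05 in control and 16.76, 16.71 and 16.70 in soy. The 3 soy mice lay below the 3 control mice with a narrow spread, a control range of 0.13 that 87.2% of genes well above background on all arrays matched or exceeded. The change was -0.26 (SE 0.09, limma adjusted p = 0.346), with a 95% interval from -0.47 to -0.04, or 0.837-fold. It was -0.18 within slide 1 and -0.35 within slide 3. Igf1 did not pass in any of 18 other settings, in which the change stayed between -0.33 and -0.22.

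Igfbp3 and Igfals encode the proteins that hold IGF1 in a stable complex in the blood. Igfbp3 (NM_008343), which in the liver is made mostly by cells other than hepatocytes, read 12.86, 12.76 and 13.03 in control and 12.47, 12.56 and 12.47 in soy. The groups did not overlap. The change was -0.38 (SE 0.11, limma adjusted p = 0.221, 95% interval from -0.63 to -0.13), or 0.767-fold, with -0.34 within slide 1 and -0.56 within slide 3. It passed in none of 18 other settings, with a change between -0.45 and -0.31.

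Igfals (NM_008340) read 11.31, 11.57 and 12.08 in control and 11.70, 11.50 and 11.33 in soy, with full overlap. The change was -0.15 (SE 0.20, limma adjusted p = 0.830), and 0.07 without control 3. Soy minus control was 0.26 within slide 1 and -0.76 within slide 3. Igfbp2 encodes a binding protein that is known to be higher when growth hormone action is low. It read 14.81, 15.63 and 15.23 in control and 14.74, 14.87 and 14.55 in soy, and control 1 lay below soy 2. Its change of -0.51 was the largest fall in mean among the brightest probes of the 10 genes (SE 0.20, limma adjusted p = 0.406, 95% interval from -0.98 to -0.03). Without control 2 it was -0.30, where Stat5a (-0.47) and Igfbp3 (-0.45) had lower values, and without control 3 Bcl6 (-0.51) lay just below Igfbp2 (-0.50).

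Of 15 other genes of the IGF system, 1 passed, and it was lower in soy. Igfbp1, whose product binds IGF1 and whose transcript insulin is known to repress, read 15.14, 14.70 and 14.29 in control and 11.74, 12.17 and 12.73 in soy. The groups lay far apart, and Igfbp1 (NM_008341) fell by 2.50 (SE 0.29, limma adjusted p = 0.0242) on the log2 scale. The fall was seen on both slides that held both groups, at -3.18 within slide 1 and -1.56 within slide 3. It passed in 12 of 18 other settings, with adjusted p between 0.0018 and 0.161, and not without control 1 (0.0576), control 2 (0.0849), soy 1 (0.0696) or soy 2 (0.108). With slide as a block, where soy 2 adds nothing to the change, it did not pass either (adjusted p = 0.161), at a change of -2.49. The median change of the 15 genes was -0.14. Igf1r, the receptor for IGF1, changed by 0.05 (adjusted p = 0.879), and Igf2 was well above background on 1 array.

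A list of 24 growth hormone signalling partners held hormones, other receptors and nuclear factors beside signalling proteins. Of these 24 genes 0 passed, and the median change was -0.11. A lower mean in soy was found in 17 of them, against 11723 of all 22911 genes. Over the 23 of them well above background throughout at least 1 group the median was -0.07, with 16 lower and 7 higher. Jak2, the kinase bound to the receptor, changed by 0.00064 (SE 0.12, limma adjusted p = 0.999). Trim24, a nuclear cofactor, changed by -0.71 (adjusted p = 0.226), Irs2, an insulin receptor substrate, by -0.70 (adjusted p = 0.301, and -0.43 without soy 1), and Prlr, the prolactin receptor, by -0.67 (adjusted p = 0.216). On the brightest probe of these 3 genes all soy mice lay below all control mice. Prlr read 11.06, 10.57 and 10.35 in control and 10.14, 9.95 and 9.89 in soy. The groups overlapped on its other 2 probes, which changed by -0.39 (adjusted p = 0.743) and -0.36 (adjusted p = 0.343). The other 2 of the 5 partners that were lower without overlap were Grb2 (-0.23) and Ghrh (-0.19), named after their values were seen, and Ghrh was well above background on 0 soy arrays. Of all 22911 genes, 10.8% were lower without overlap. Gh itself was well above background on 0 of 6 arrays. Socs3, an inhibitor that answers other cytokines as well, read 12.92, 13.44 and 11.57 in control and 11.62, 11.89 and 12.54 in soy, with control 3 the lowest mouse and a change of -0.63 (adjusted p = 0.656), or -1.17 (adjusted p = 0.208) without control 3 and -0.23 without control 2. Stat3 changed by -0.32 (adjusted p = 0.479), or -0.48 without soy 3, and its dimmer probe was at -0.44 (adjusted p = 0.226).

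**Figure D4:**
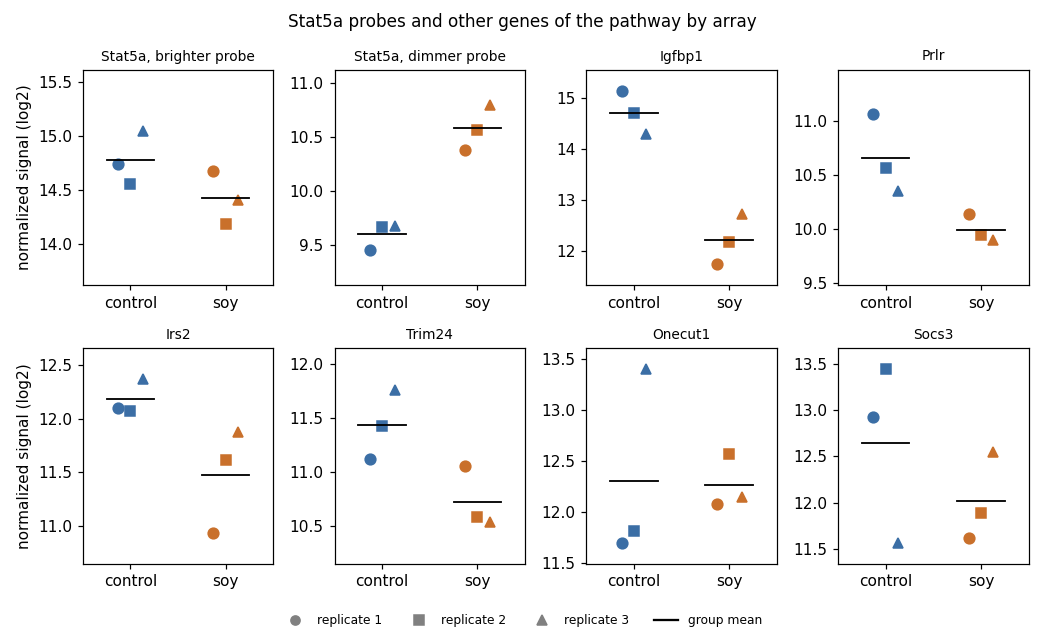
Normalized log2 signal (y axis, each panel with its own range) of both Stat5a probes and of 6 other pathway genes in the control and soy mice (x axis), with a symbol per mouse and a line at the group mean. The group means of the Stat5a probes differ in opposite directions, Igfbp1 falls from above 14 to below 13, and control 3 is the highest mouse in Onecut1 and the lowest in Socs3.

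Lists of genes known to be higher in male or in female liver under growth hormone were read in these male mice. Of 15 male-biased genes 0 passed, with a median change of -0.00018. Moxd1 changed by 0.78 (limma adjusted p = 0.856), with control 2 at 6.70 and the other 5 mice between 10.11 and 12.31, and by -0.88 without control 2, 1.93 without control 1 and 1.29 without control 3, while Selenbp2 changed by -0.49 (adjusted p = 0.134) and Gstp1 by 0.44 (adjusted p = 0.431, and 0.24 without control 1). Of 15 female-biased genes 1 passed, and the median change was -0.04. Over the 8 of them that were well above background throughout at least 1 group the median was -0.31, with 3 higher and 5 lower in mean, and 4 of the 15 were not well above background on an array of either group. Cyp4a14, a fatty acid hydroxylase gene that PPARA is also known to induce, read 6.93, 6.72 and 7.27 in control and 9.78, 10.22 and 10.74 in soy, and rose by 3.28 (SE 0.25, limma adjusted p = 0.00775). Its probe was well above background on 2 of 3 control arrays, so the size of this rise rests on control values close to background. Cyp3a16 and Cyp3a41a, picked after their values were seen, were also higher without overlap, at 1.28 (adjusted p = 0.0840) and 0.80 (adjusted p = 0.171), and these P450 genes have near-identical paralogs. Cux2, a female-biased regulator, was well above background on 1 array.

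All 10 hepatocyte markers were well above background on all 6 arrays, 0 passed, and their median change was -0.10. Their largest changes were in Tat (-0.76), Cps1 (-0.47) and Apob (0.46). None of the endothelial, Kupffer cell, stellate cell or cholangiocyte markers passed. The median of 10 endothelial markers was 0.03, with Lyve1 at -0.67 (-0.04 without control 1 and -1.0 without control 2), Kdr at 0.30 and Cdh5 at 0.22 (0.09 without soy 3). Kupffer cell markers, which mark the resident macrophages, had a median of 0.19 and a higher mean in soy in 9 of 10 genes, with Marco at -0.73 (-0.20 without control 3 and -0.46 without soy 1), Folr2 at 0.46 and Cd5l at 0.45, the last 2 at 0.30 and 0.20 without control 1. Centred on the 6 arrays, their mean was -0.44, -0.03 and 0.24 in control and -0.23, 0.06 and 0.38 in soy, so control 3 and soy 3, both on slide 3, were the highest. The stellate cell list had a median of -0.16, with Col1a1 at -0.997 (-0.61 without control 1), Col3a1 at -0.94 and Reln at -0.23 (-0.08 without control 1 and -0.43 without control 3), and the 8 cholangiocyte markers one of 0.13 (-0.012 over the 6 that were well above background throughout at least 1 group), with Cftr at -0.23 (-0.09 without soy 1) and Sox9 at -0.16 (-0.05 without soy 2, -0.27 without control 3 and 0.35 on its dimmer probe). Cftr was well above background on 0 soy arrays. The part of any of these cell types in the values of Igfbp3 or Socs2 was not tested.

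Genes of the response to fasting and of the daily clock were also followed. Of 10 fasting response genes 1 passed, Pdk4, a kinase gene that restrains glucose oxidation. Pdk4 rose by 1.87 (SE 0.18, limma adjusted p = 0.0149). Of the 10, 6 had a lower and 4 a higher mean in soy, and the median was -0.58. Pdk4 did not pass without soy 1 (adjusted p = 0.0622), soy 2 (0.0695) or soy 3 (0.0532), or with slide as a block (0.101), at changes between 1.80 and 1.96. Of 14 clock genes 0 passed, 9 had a lower and 5 a higher mean in soy, and the median was also -0.58. Dbp changed by -2.59 (adjusted p = 0.300), Ciart by -2.39 (adjusted p = 0.218) and Arntl by 1.79 (adjusted p = 0.210), and without control 3 these were -2.94, -3.07 and 2.17. Dbp was at -1.49 without soy 3. The dimmer probes changed by -2.62 for Dbp, -0.91 for Ciart, and -0.0035 and 0.72 for Arntl. Ciart passed with the replicate number as a block (adjusted p = 0.0427). Ciart read 10.94, 10.48 and 8.66 in control and 8.68, 7.54 and 6.68 in soy, and Arntl read 7.61, 7.42 and 8.66 in control and 8.88, 9.48 and 10.71 in soy. Control 3 thus lay nearer to the soy mice than controls 1 and 2 did in these 2 genes. Centred on the 6 arrays, the mean of the clock list was 0.41, 0.34 and 0.01 in control and 0.07, -0.27 and -0.56 in soy. The part of the hour of collection, or of feeding, in the values of the axis genes was not tested.

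**Figure D5:**
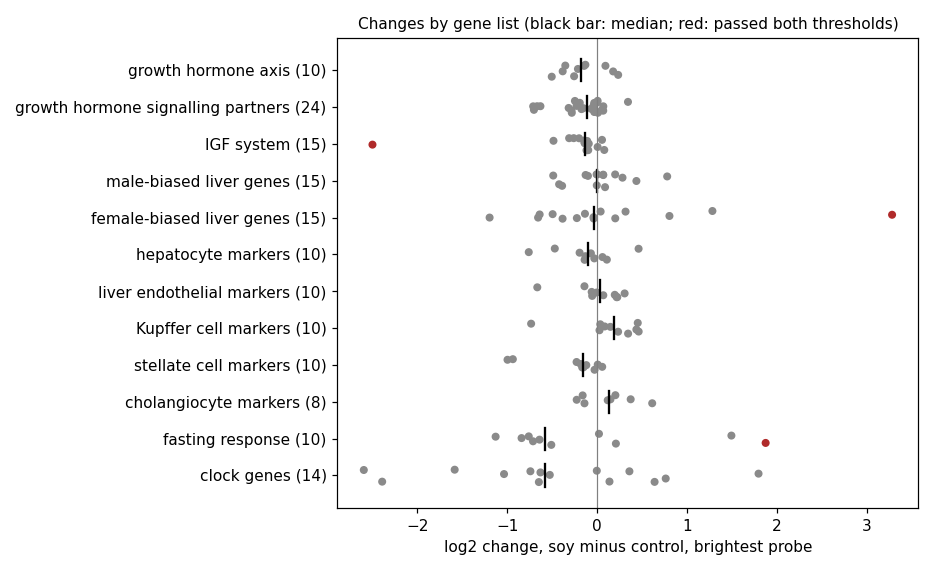
Change in log2 signal, soy minus control, of the brightest probe of each gene (x axis) by gene list, with the number of genes on the array (y axis). Points are genes, black bars are list medians and red points passed both thresholds, of which there are 3: Igfbp1, Cyp4a14 and Pdk4.

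The genes whose values over the 6 arrays were most like those of a member were found by the root mean square difference of centred log2 values, among 13498 genes well above background on all arrays. For Stat5b, which had the highest rise in mean among the brightest probes over all mice but not without control 1, control 2, control 3 or soy 1 or with slide as a block, they were Exoc6 (0.031), Itgb5 (0.038) and Cmtr1 (0.047). For Igfbp2, which had the largest fall in mean over all mice but not without control 2 or control 3, they were Rap1gap (0.065), A2ml1 (0.079) and Mpp7 (0.084). Socs2 was added after its values were seen, and was most like 9030619P08Rik (0.21), Ly6c1 (0.23) and Ly6a (0.31), in each of which control 3 was the highest mouse. With its sign turned, Socs2 was most like Kcnk5 (0.44), Lratd2 (0.50) and Bcl6 (0.51).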

How the data were processed

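Liver RNA of 6 mice was measured on Agilent G3 Mouse arrays. The authors deposited, per the file headers, Feature Extraction 11.5.1.1 output, whose median intensity per spot and local background is neither corrected nor scaled between arrays. They also deposited log2 values of unstated processing, with array medians of 7.33 to 7.34. The values here departed from the deposited ones by no more than 0.0705.

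Normexp (offset 50) corrected the median intensities for background, and quantile normalization and the log2 transform followed once control spots had been removed. Spots marked as outliers were dropped, and repeated spots of a probe were averaged. Soy was compared with control in limma 3.58.1 (R 4.3.3), with Benjamini-Hochberg adjustment over 56605 probes. The fit was tested on simulated data. Tables and plots were made with Python 3.11.15, pandas 2.3.3 and matplotlib 3.10.9. RefSeq accessions gave 32994 probes (58.3%) a symbol, from a table of another build than the arrays (GRCm38.p6), so positions are given only for the promoter windows, on that build.

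The 10 genes and 11 other lists (141 genes, 140 with a probe), written from general knowledge, were chosen with earlier results of these data known. Named were all 10 genes, the list genes that passed, the 3 largest changes among detected genes where none of a list passed, genes of known role (Jak2, Prlr, Igf1r, Igf2, Igfbp1, Socs3, Stat3, Onecut1, Cux2, Trim24), and the 3 genes most like the members with the largest rise and fall. A gene that this rule also names is not reported here. Alternatives changed the background correction, the scaling, the input, the probe and outlier filters, the variance model, the threshold, the blocks and the mice. The within-slide values, the shares without overlap with 1 mouse left out and the fits of the list genes without 1 mouse or with a block were added after the data were seen.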

Additional observations from a re-analysis of the deposited data

How the results depend on the processing

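The changes of Ghr, Stat5b, Igf1, Igfbp2, Igfbp3 and Igfbp1 kept their direction in every setting tried, and of these only Igfbp1 ever passed. The count of axis genes that passed, 1, went to 0 with the mean of a gene's probes, with a normexp offset of 16, with a replicate block, with slide as a block and in each fit that left out 1 mouse (0 to 0). In those fits the axis genes without overlap numbered 2 to 5 (5 without control 3, 5 without soy 1 and 4 without control 1, where 38.7%, 36.4% and 37.2% of genes well above background on all arrays had no overlap, and 33.1% to 34.3% in the other fits). The brightest Stat5a probe's change of -0.35 became 0.32 with the mean of both probes. With slide as a block, Socs2 changed by -0.15 and its dimmer probe by -0.30. In the same fit Cish changed by -0.42, Bcl6 by 0.40 and Onecut1 by -0.36. Leaving out 1 mouse gave changes of -0.35 to 1.18 for Socs2, -0.50 to 1.06 for its dimmer probe, -0.51 to 0.40 for Bcl6, -0.31 to 0.20 for Cish, -0.32 to 0.069 for Igfals and -0.34 to 0.51 for Onecut1, where the value farthest from that over all mice was the one without control 3 in each.

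Over all genes, 122 passed, against 184 with eBayes trend and robust settings, 48 with an offset of 16, 5892 with the processed signal scaled to its 75th percentile, 51 with a replicate block, 16 with slide as a block and 313 when dim probes were left out. Leaving out 1 mouse gave 18 to 130 genes. The counts were 63, 45 and 130 when control 1, 2 or 3 was dropped and 30, 18 and 19 when soy 1, 2 or 3 was. The processed signal called 5332 genes higher and 615 lower (89.7% higher, against 63.9%, with genes that had probes in both directions counted in each), and slide as a block 7 and 9 (43.8% higher). The median of all probes stood at 0.13 with both scalings to the 75th percentile, against -0.01.

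With the processed signal, 5892 of all 22911 genes passed, and 1 of the 10 axis genes. Passed in that setting were 3 of 15 IGF system genes, 2 of 8 cholangiocyte markers and 1 of 14 clock genes. So were 4 of 10 fasting genes, 5 of 15 female-biased genes and 1 of 24 signalling partners. The replicate block gave 0 IGF system genes and 1 clock gene, Ciart, and slide as a block gave 0 IGF system and 0 fasting genes. Fasting genes numbered 2 with the 75th-percentile shift and with cyclic loess, and 3 with trend and robust settings and with dim probes left out, which also gave 2 female-biased genes. Without 1 mouse, 0 to 1 IGF system genes passed (0 without control 1, control 2, soy 1 or soy 2), 0 to 3 fasting genes (3 without control 3 and 0 without any 1 soy mouse) and 0 to 1 hepatocyte markers (1 without control 3). The cause of these shifts was not tested.

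Replicate numbers were shared by the labels of both groups, but same-numbered mice deviated together at only 0.10, -0.05 and 0.10 (correlation over 32338 probes), so the numbers were not taken to pair the mice. Those numbered 1 share slide 1 and those numbered 3 share slide 3. With the replicate block the adjusted p of Igfbp1 was 0.0854 and that of the dimmer Stat5a probe 0.0618, at changes of -2.50 and 0.99. The 3 arrays per group and a slide with 1 array limit all of these values. That array, soy 2, adds nothing to a change fitted with slide as a block.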
